A study of Mus musculus with 10 samples.

Results

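Interferon-stimulated genes are the genes that cells switch on when interferon reaches them, and 37 of them were followed here in mouse eyeballs under blue or natural light. The 37 were listed by symbol with no cutoff on measured values, and all 37 were found among the 24736 genes of the deposited mRNA table. The RNA is from whole eyeballs of outbred Kunming mice, all female and given as 4 weeks old. Animals of the control group were kept in natural light (2 mRNA libraries, control A and B), and those of the blue light group under an 18 W PL-L lamp inside a dark container (3 mRNA libraries, blue A to C). Day 14 stands in every sample title, and no genotype, allele or drug is named for either group. Whether each library stands for another animal, or for pooled eyes, is not in the labels, so the p-values below measure only the spread between these libraries, which may be technical. An eyeball sample mixes retina, lens, cornea and attached tissue, and in such bulk RNA more cells of a type and more RNA per cell cannot be told apart.

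Type I interferons bind the receptor pair Ifnar1 and Ifnar2, and the kinases Jak1 and Tyk2 then phosphorylate STAT proteins, Stat2 among them. Joined by Irf9, these form the complex ISGF3, which binds the interferon-stimulated response element (ISRE) and turns on antiviral genes. Interferon gamma acts through another receptor pair, Ifngr1 and Ifngr2, and through STAT pairs that bind the gamma-activated site (GAS), the route best known for guanylate-binding proteins and immunity-related GTPases. In the retina, microglia, glia and pigment epithelium are known to respond to interferons.

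The ISRE and GAS letters can be read directly from the promoters of these genes. RefSeq promoters (GRCm38.p6, the assembly called mm10), 250 bases before to 50 bases after the annotated start, were at hand for 28 of the 37 genes, 32 promoters in all. They were searched on both strands for the ISRE core (GAAA, any 2 bases, then GAAA again) and for the GAS letters TTCNNNGAA, whose pattern reads the same on both strands. The ISRE core was in 19 of 32 promoters (59.4%), against 3.44% of all 32851 promoters of that length, and GAS in 8 (25%), against 8.3%. By gene, 18 held an ISRE core, 8 a GAS match, 6 both and 8 neither, and in 1 gene, Bst2, an ISRE and a GAS match shared bases. A match is a description of the letters, not a shown binding site. Of the 6 ISRE-holding genes with the smallest p in the comparison of light conditions, 4 held the match before the start, and these are shown 5' to 3' on the gene's strand with ISRE matches and whole GAS matches in capitals. Where the table's start lies inside an annotated gene, only the bases around the matches are given. That holds for Ifit1 (chr19:34640785-34640814, inside Ifit1bl1 and Ifit1bl2), for the distal and proximal match of Ifit3 (chr19:34583368-34583387 and chr19:34583402-34583421, inside the span of Ifit3 itself) and for Stat2 (chr10:128270266-128270295, inside Apof). The stretch of Gbp7 is chr3:142530236-142530335, whose first 3 bases end another GAS match that is not shown, and all 4 genes are on the plus strand. In the other 2, Ddx58 and Eif2ak2, the match (TTTCGATTTC and GAAAACGAAA) lay after the start.
Ifit1: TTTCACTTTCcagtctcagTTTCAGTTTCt
Ifit3, distal: gtaagTTTCACTTTCctctt
Ifit3, proximal: gtctgTTTCAGTTTCtactt
Gbp7: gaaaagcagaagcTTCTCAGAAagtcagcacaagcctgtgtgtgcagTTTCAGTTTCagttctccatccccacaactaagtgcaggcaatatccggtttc
Stat2: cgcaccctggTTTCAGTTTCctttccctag

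Ifit1 and Ifit3, which sit on chromosome 19 from 34640889 to 34650009 and from 34583119 to 34588982, carried matches with the same letters in the same order. Another 3 promoters were chosen after they were seen, for their arrangement, each from 100 bases before the start up to it. The stretches are chr4:156200819-156200918 on the minus strand for Isg15, and chr11:58199456-58199555 and chr11:58214877-58214976 on the plus strand for Igtp and Irgm2. In Isg15 3 overlapping ISRE matches run together. The neighbours Igtp and Irgm2 on chromosome 11 each carried a GAS match followed after 2 bases by an ISRE match.
Isg15: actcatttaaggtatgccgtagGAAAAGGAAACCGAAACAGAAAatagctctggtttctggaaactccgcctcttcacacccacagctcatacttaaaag
Igtp: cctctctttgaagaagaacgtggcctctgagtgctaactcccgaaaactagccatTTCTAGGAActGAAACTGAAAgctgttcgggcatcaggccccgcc
Irgm2: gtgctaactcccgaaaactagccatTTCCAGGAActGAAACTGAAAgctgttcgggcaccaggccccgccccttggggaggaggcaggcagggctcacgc

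The map of matches shows that 16 of the 27 ISRE matches lay within 100 bases before a start. All 3 guanylate-binding proteins and all 3 immunity-related GTPases held an ISRE core, as did 1 of 3 transcription factors. The 18 genes with an ISRE core and the 10 without had median log2 fold changes of 1.46 and 1.42 between light conditions.

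**Figure D1:**
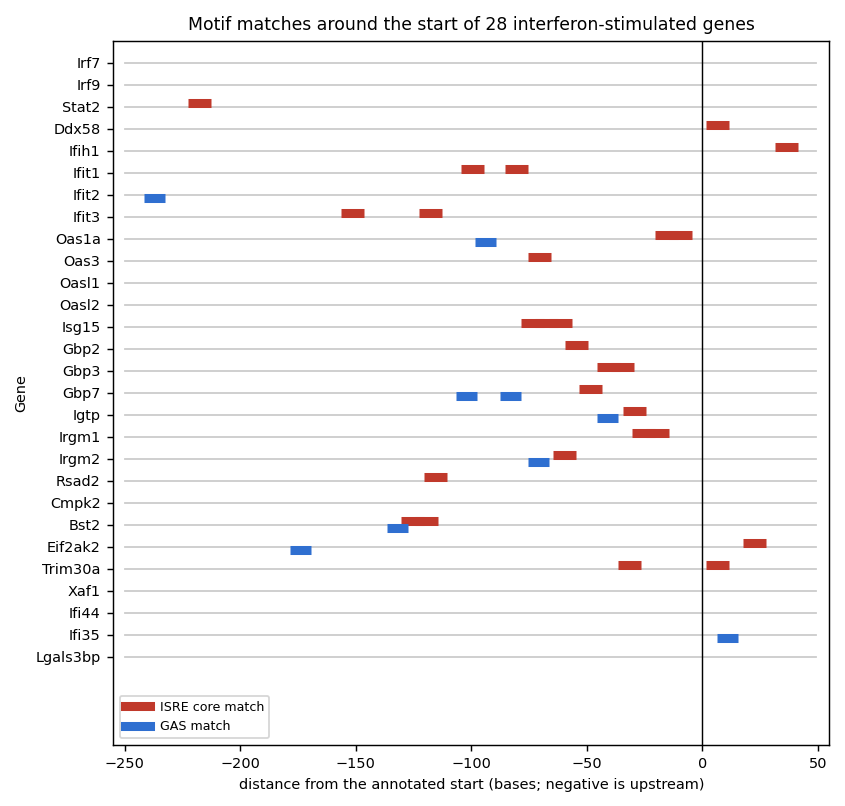
Each row is one of the 28 genes with a RefSeq promoter, the x axis is the distance in bases from the annotated start (negative is upstream), and red and blue bars mark ISRE core and GAS matches. Of 27 ISRE matches, 16 lie within 100 bases upstream of the start, and 8 genes hold neither motif.

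Library totals ran from 87071487 to 107660103 estimated counts. The ribosomal RNA gene Rn45s took 4.3% of control A, and 8.69% to 14.4% of the other 4 libraries. The rod transcripts Sag, Gnat1, Pde6b, Nrl and Gngt1 were found in every library and fell under blue light. Each of these 5 lost that call in edgeR without control A, control B or blue C. Each also lost it with a block by library letter and with the Rn45s share as a covariate. Lens, cornea and pigment epithelium markers were found in every library. Levels below are CPM, counts scaled to a common library total, after TMM scaling, which evens out composition. They are given for control A and B against blue A, B and C, in that order, and the log2 fold change (log2FC) is blue minus natural light. The standard error (SE) of a log2FC was derived from the F statistic of the test and restates it. Adjusted p-values are from the quasi-likelihood test of edgeR, adjusted after Benjamini and Hochberg over all 18988 genes tested, and 0.05 was the threshold.

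All 37 genes had a positive log2FC under blue light, as did 49% of all genes, yet none passed the test over all genes. Their median log2FC was 1.45, a 2.73-fold higher level, against -0.0056 over all tested genes. A log2FC above 1 was seen in 32 of the 37, and in 3.81% of all tested genes. The range ran from 0.06 for Oasl1 to 2.78 for Mx2, a 6.87-fold difference. The smallest adjusted p-values in edgeR were 0.134 for Usp18, 0.136 for Irf9, 0.142 for Mx2 and 0.157 for Ifit1.

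In edgeR 0 of 37 were called higher, against 0.664% of all genes, and 0 lower, against 1.55% (2.22% in either direction). At an unadjusted p under 0.05, 25 of 37 were higher, against 7.03% of all genes. DESeq2's Wald test called 13 of 37 higher, against 4.46% of all genes: Irf9, Stat2, Ddx58, Ifit1, Ifit2, Ifit3, Oas1a, Usp18, Mx1, Mx2, Cmpk2, Eif2ak2 and Ifi27. Limma-voom called 0, against 0.69%. In 21 of the 37 all 3 blue libraries lay above both controls, as in 15.6% of all genes, and in 0 did all blue libraries lie below them, against 20.1%. The other 16 genes had groups that overlapped.

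**Figure D2:**
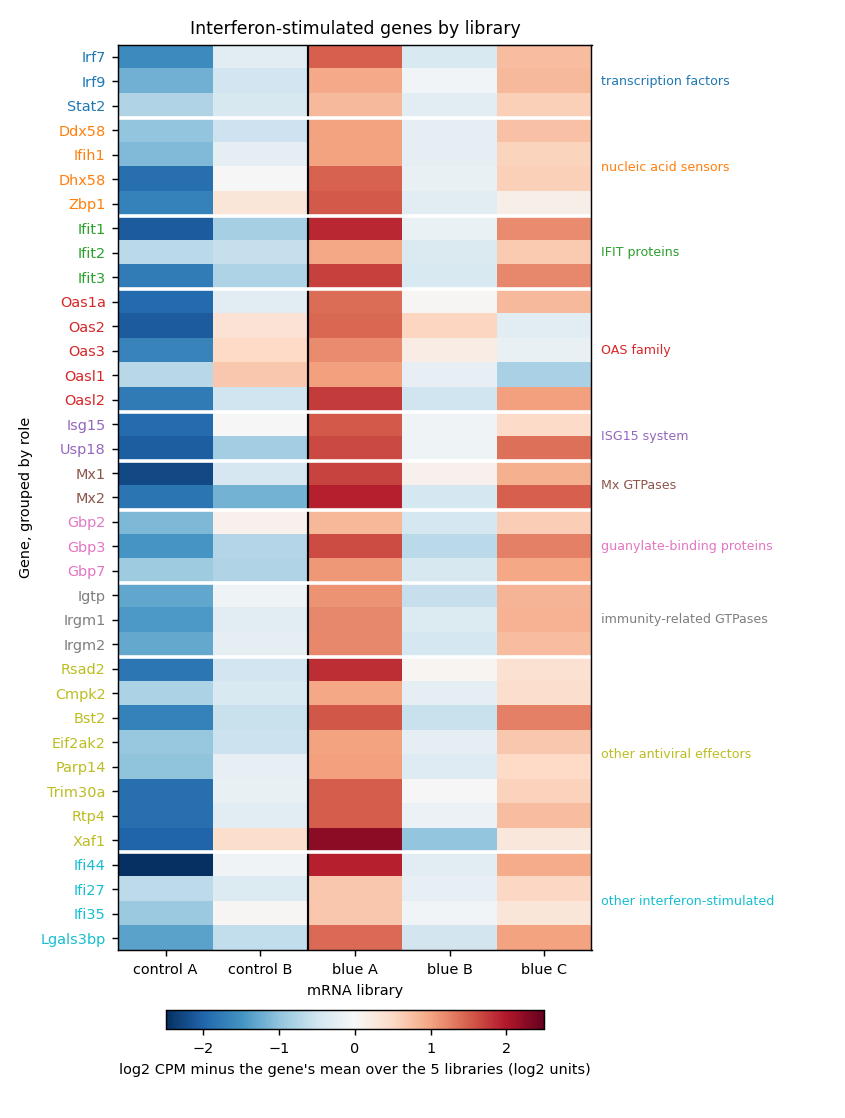
Rows are the 37 genes grouped by role and columns the 5 mRNA libraries (controls left of the black line), and colour gives log2 CPM minus the gene's mean over the libraries. Blue A holds the highest value of every row, and control A the lowest of every row but that of Oasl1.

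Libraries of the same light differed widely in these genes, in one shared pattern. Blue A was the highest library for 37 of 37 genes, and is the highest for 24.4% of all tested genes. Control A was the lowest for 36 of 37, and is the lowest for 24.2% of all genes, with blue C lowest for Oasl1. Control B lay above control A for 37 of 37 genes, by a median of 2.27-fold and a range of 1.06-fold to 5.44-fold, whereas over all genes it lay above in 50% of cases. Control A was also the library with the lowest Rn45s share. With that share as a covariate, a fit chosen after seeing the data, the median log2FC of the 37 was 1.35.

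The summed level of the 37 genes was 442 and 834 CPM against 2679, 879.8 and 1847 CPM. Blue B thus stood close to control B. Its median ratio to control B was 1.08-fold, and it lay above control B in 22 of 37 genes, against 45.6% of all genes. Blue A stood at a median of 2.92-fold over control B and blue C at 2.03-fold. The most common order from low to high was control A, control B, blue B, blue C, blue A, found in 21 genes. A further 11 differed from it only by having blue B under control B.

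Among the transcription factors, the ISGF3 subunits Irf9 and Stat2 had groups that did not overlap, while those of Irf7 overlapped. Over all tested genes, 15.6% had groups apart with blue higher. Irf9 stood at 17.3 and 28.6 CPM against 76.8, 38.1 and 69.7 CPM. Its log2FC was 1.43 (SE 0.36, adjusted p = 0.136 in edgeR). Stat2, whose promoter is printed above, stood at 51.4 and 65.5 CPM against 150.0, 72.1 and 129.6 CPM. All 3 blue libraries were above the controls, with blue B nearest to them (log2FC 1.0, SE 0.32, adjusted p = 0.204 in edgeR). Irf7, the factor that amplifies interferon production, stood at 13.01 and 32.3 CPM against 110.2, 30.2 and 67.4 CPM. Blue B was below control B there (log2FC 1.62, SE 0.63, adjusted p = 0.290 in edgeR).

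The list holds 4 sensors of foreign or misplaced nucleic acid. Among them only Ddx58 had groups apart with blue higher, as did 15.6% of all genes. Ddx58 encodes RIG-I, a sensor of RNA ends, and stood at 25.9 and 35.7 CPM against 103, 43.9 and 84.9 CPM. Its log2FC was 1.33 (SE 0.37, adjusted p = 0.166 in edgeR). Ifih1, which encodes the long double-stranded RNA sensor MDA5, stood at 17.9 and 33.2 CPM against 77.5, 32.7 and 57.1 CPM, with blue B level with control B. Dhx58, the related LGP2, and Zbp1, a sensor of Z-form nucleic acid linked to necroptosis, both stood higher in control B than in control A. Dhx58 stood at 1.93 and 7.16 CPM against 19.9, 6.32 and 10.8 CPM (log2FC 1.45, SE 0.70). For Zbp1 the values were 2.88 and 11.4 CPM against 26.7, 7.70 and 10.2 CPM, so blue B and blue C lay inside the control range (log2FC 1.07, SE 0.76, adjusted p = 0.559 in edgeR).

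IFIT proteins are known for binding viral RNA. In all 3 of their genes the blue libraries lay above both controls, as in 15.6% of all genes. Ifit1 stood at 11.8 and 28 CPM against 183, 44.3 and 113 CPM. Its log2FC was 2.51 (SE 0.69, adjusted p = 0.157 in edgeR). Ifit3 followed the same order, at 23.8 and 46.7 CPM against 262, 61.9 and 184 CPM (log2FC 2.26, SE 0.65, adjusted p = 0.175 in edgeR). Ifit2 differed from both in its controls, which lay close together at 19.1 and 20.3 CPM, against 59.6, 23.7 and 48.1 CPM in the blue libraries. Its log2FC was smaller, 1.15 (SE 0.38, adjusted p = 0.215 in edgeR).

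The annotated span of Ifit1 lies within that of its relative Ifit1bl1 (34592888 to 34662981), and strand use in counting is not stated, so the value of Ifit1 alone is uncertain. With the 4 overlapping genes of that locus summed, the log2FC was 0.87 (adjusted p = 0.376 in edgeR). Ifit1bl1 itself stood at 118 and 175 CPM against 241, 164 and 57.7 CPM, and blue C was its lowest library. Ifit3b, a near copy of Ifit3, had a log2FC of 1.76, and reads of the pair could be shared. A total of 6 of the 37 genes overlapped another gene of the table, and besides Ifit1 the summed locus kept a log2FC between 0.81 (Gbp2) and 1.53 (Rtp4).

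OAS enzymes make 2-5A, the messenger that activates RNase L, and the library order of their family was mixed. Oas1a stood at 1.99 and 6.32 CPM against 20.2, 7.82 and 13.4 CPM, with the groups apart (log2FC 1.74, SE 0.61, adjusted p = 0.240 in edgeR). Oasl2 stood at 19.2 and 46.3 CPM against 221, 46.6 and 134 CPM, so blue B was level with control B (log2FC 2.03, SE 0.72, adjusted p = 0.244 in edgeR). In Oas2, Oas3 and Oasl1, by contrast, blue C lay below blue B and below control B.

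Oas2 stood at 4.21 and 22.8 CPM against 47.8, 25.7 and 14.9 CPM, and Oas3, its neighbour on chromosome 5 (120753098 to 120777684), at 3.48 and 15.6 CPM against 25.2, 12.6 and 9.78 CPM. Oasl1, known in mice for holding back Irf7 translation, stood at 9.77 and 25.3 CPM against 32.1, 13.8 and 8.996 CPM. It was the gene with the smallest difference (log2FC 0.06, SE 0.63, adjusted p = 0.977 in edgeR), and the sign turned to -0.44 without control A and to -0.60 without blue A. Oas1a has a close copy, Oas1g, with a log2FC of 1.97, and reads could be shared between them.

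Isg15 is a ubiquitin-like protein attached to other proteins, and Usp18 takes it off again and also dampens the interferon receptor. Usp18 stood at 2.33 and 5.32 CPM against 30.4, 8.92 and 25.1 CPM, a 5.64-fold difference (log2FC 2.5, SE 0.63, adjusted p = 0.134 in edgeR). All blue libraries were above both controls. Isg15, despite its run of ISRE matches, had groups that overlapped, at 2.45 and 9.37 CPM against 27.0, 8.74 and 12.96 CPM (log2FC 1.46, SE 0.71, adjusted p = 0.386 in edgeR).

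The Mx GTPases, which trap viral nucleoproteins, sit side by side on chromosome 16 (Mx1 from 97447035 to 97462906, Mx2 from 97536081 to 97560901). Mx2 stood at 2.26 and 3.51 CPM against 30.7, 5.90 and 22.6 CPM (log2FC 2.78, SE 0.73, adjusted p = 0.142 in edgeR). Mx1 stood at 0.692 and 2.45 CPM against 10.7, 3.52 and 6.05 CPM (log2FC 2.11, SE 0.70, adjusted p = 0.218 in edgeR). Both had groups apart with blue higher, against 15.6% of all genes, and in both blue B was the blue library nearest to the controls.

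**Figure D3:**
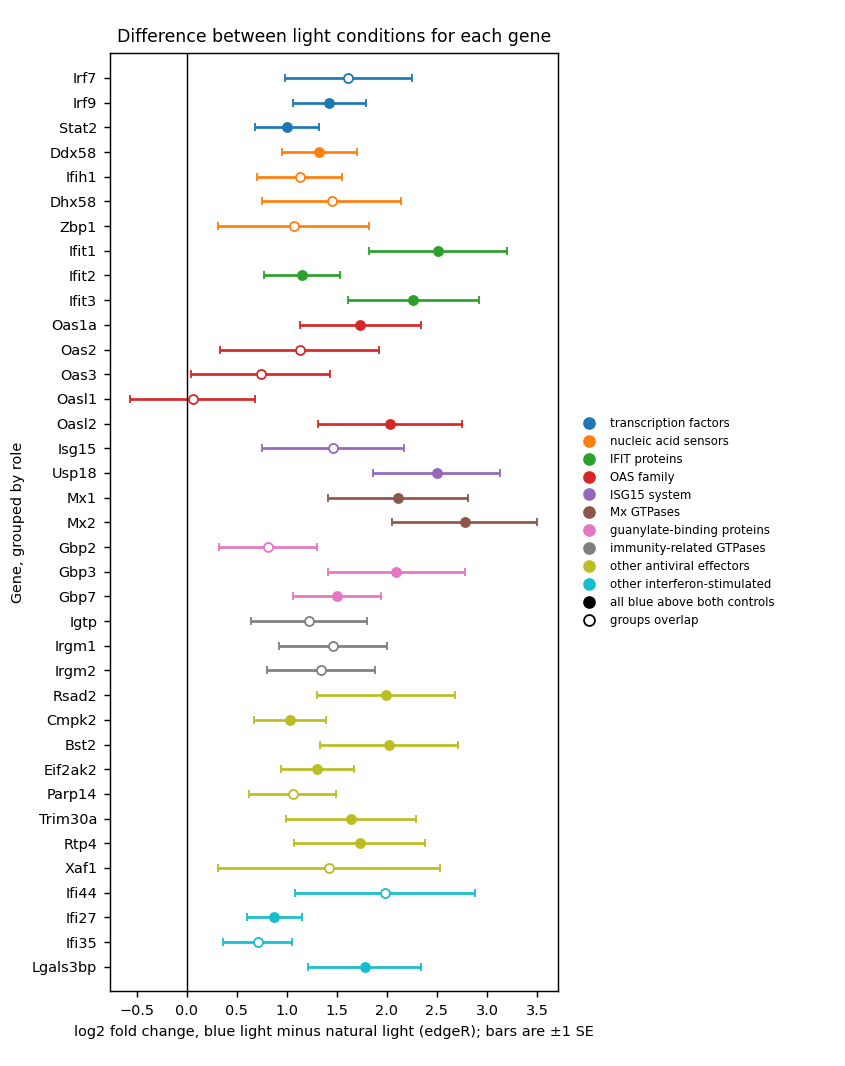
Points are the log2 fold change (blue minus natural light) of each of the 37 genes with bars of 1 SE, coloured by role, filled where all blue libraries lay above both controls and open where the groups overlap. Mx2 lies farthest right at 2.78 and Oasl1 nearest to 0 at 0.06, and 21 points are filled.

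Guanylate-binding proteins and immunity-related GTPases act on the membranes around intracellular microbes. None of these 6 was called by edgeR or DESeq2, which called 0.664% and 4.46% of all genes higher. Gbp7 had close controls, at 20.7 and 22.9 CPM against 81.4, 29.3 and 74.9 CPM (log2FC 1.51, SE 0.44, adjusted p = 0.179 in edgeR). Gbp3, beside it on chromosome 3, stood at 6.17 and 10.3 CPM against 53.2, 10.8 and 41.4 CPM (log2FC 2.10, SE 0.69, adjusted p = 0.214 in edgeR). Gbp2 overlapped between groups, at 11.9 and 27.9 CPM against 46.1, 19.2 and 39.6 CPM. Blue B lay above control B in 22 of the 37 genes and in 45.6% of all genes. It lay below control B in Gbp2 and in each of the 3 GTPases Irgm1, Irgm2 and Igtp. Irgm1, the largest of the 3 by log2FC (1.46, SE 0.54, adjusted p = 0.265 in edgeR), stood at 11.8 and 26.0 CPM against 72.6, 24.9 and 58.1 CPM. The log2FC was 1.34 for Irgm2 and 1.22 for Igtp.

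Of the 8 other antiviral effectors 6 had groups apart with blue higher, against 15.6% of all genes, Bst2 by a narrow margin. Rsad2 (viperin, which makes a chain-ending nucleotide) stood at 2.97 and 7.38 CPM against 37.3, 10.8 and 13.5 CPM (log2FC 1.99, SE 0.69, adjusted p = 0.236 in edgeR). Cmpk2, the nucleotide kinase encoded next to it on chromosome 12, had closer values in both groups, at 8.53 and 11.3 CPM against 28.5, 12.4 and 20.0 CPM (log2FC 1.03, SE 0.36). Eif2ak2 encodes PKR, the kinase that halts translation on double-stranded RNA, and stood at 26.7 and 35.8 CPM against 104, 44.5 and 82.8 CPM (log2FC 1.31, SE 0.37, adjusted p = 0.166 in edgeR). Bst2, the tetherin that holds virions at the membrane, stood at 3.41 and 7.428 CPM against 32.1, 7.442 and 26.3 CPM, so blue B was barely above control B. Trim30a and Rtp4 had log2FC of 1.64 and 1.73, with blue B slightly above control B in each.

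Xaf1, a partner of the apoptosis inhibitor XIAP, had the largest SE of the 37 genes. Its values were 3.46 and 18.8 CPM against 65.3, 6.95 and 16.9 CPM, with only blue A above control B. The SE of its log2FC of 1.42 was 1.11. Parp14, an ADP-ribosyltransferase, stood at 36.3 and 63.5 CPM against 149, 58.7 and 104 CPM (log2FC 1.06, SE 0.43). Its groups overlapped because blue B lay below control B.

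In the remaining 4 genes, the smallest SE of the whole list was that of Ifi27, a small mitochondrial and membrane protein, at 0.28. Ifi27 stood at 13.5 and 16.7 CPM against 34.0, 18.4 and 30.5 CPM (log2FC 0.88, adjusted p = 0.204 in edgeR), and its span overlaps that of its relative Ifi27l2a. Lgals3bp, a secreted glycoprotein, stood at 30.1 and 49.7 CPM against 203, 55.5 and 152.5 CPM (log2FC 1.78, SE 0.57, adjusted p = 0.204 in edgeR). Ifi44 stood at 1.58 and 8.38 CPM against 34.4, 7.34 and 16.9 CPM, with blue B below control B (log2FC 1.98, SE 0.90, adjusted p = 0.358 in edgeR). The groups of Ifi35 overlapped as well (log2FC 0.71), since blue B was just under control B.

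Each library was also left out in turn. Without blue B, 9 of the 37 passed in edgeR, against 0.492% of all genes: Stat2, Ddx58, Ifit2, Mx2, Gbp3, Gbp7, Eif2ak2, Ifi27 and Lgals3bp. The lowest adjusted p there was 0.0255, for Gbp7. Without control A, control B, blue A or blue C the count stayed at 0 in edgeR, with 0, 31, 16 and 11 genes higher at an unadjusted p under 0.05. The same fits called 0.031%, 0%, 0.522% and 0.0319% of all genes higher. The median log2FC was 1.13 without control A and 2.37 without control B, and 1.08, 1.79 and 1.45 without blue A, B and C.

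**Figure D4:**
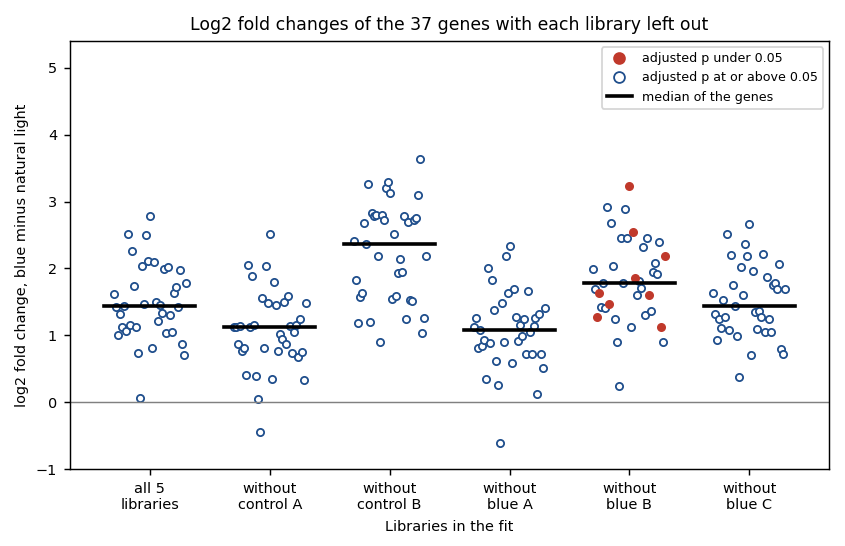
Each point is the log2 fold change (blue minus natural light) of 1 of the 37 genes, for all 5 libraries and with each library left out, red where the adjusted p is under 0.05, with the median as a black line. The median runs from 1.08 without blue A to 2.37 without control B, and only the fit without blue B has red points, 9 of them.

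Upstream of these genes, the interferons themselves were near or at 0. Of 21 listed ligand genes 13, among them most interferon alpha genes and Ifnl3, were at 0 in every library. Another 2 were abundant enough to test, and in neither were the groups apart. Over all tested genes, 15.6% were apart with blue higher and 20.1% with blue lower. Ifnk, an interferon of skin and surface epithelium, stood at 0.898 and 1.199 CPM against 1.09, 0.671 and 0.637 CPM (log2FC -0.39, adjusted p = 0.682 in edgeR), and Ifna13 had a log2FC of -0.59. Named after its values were seen, Ifnb1, the interferon beta gene, had 0 estimated counts in both controls and in blue B, 12 in blue A and 4 in blue C. Interferon gamma (Ifng) had 7 in control A and 0 elsewhere. At these values no difference could be tested.

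None of the 6 receptor genes passed in edgeR, against 2.22% of all genes in either direction. Of the 6, 1, Ifnar2, was higher at an unadjusted p under 0.05, as were 7.03% of all genes. Ifnar2 stood at 14.2 and 16.7 CPM against 24.4, 20.3 and 20.1 CPM, with groups apart (log2FC 0.49, SE 0.14, adjusted p = 0.166 in edgeR), and DESeq2 called it. Its partner Ifnar1 had a log2FC of 0.03, and the interferon gamma receptor chains Ifngr1 and Ifngr2 -0.02 and 0.27. Ifnlr1 and Il10rb, the pair for interferon lambda, stood at 0.24 and 0.25.

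Of 9 JAK-STAT and IRF genes 0 passed in edgeR, 2 were higher at an unadjusted p under 0.05, Irf8 among them, and DESeq2 called 2 higher. Over all tested genes these shares were 2.22% in either direction, 7.03% and 4.46%. Irf8, a factor of microglia and other myeloid cells, stood at 3.97 and 5.85 CPM against 10.1, 7.78 and 9.48 CPM (log2FC 0.90, SE 0.22, adjusted p = 0.130 in edgeR). The kinases Jak1, Jak2 and Tyk2 had log2FC of -0.03, 0.16 and 0.12. For Irf1, Irf2, Irf3 and Irf5 it was 0.27, 0.21, -0.09 and 0.56.

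Among 11 sensor adaptors and kinases edgeR called 0, against 2.22% of all genes in either direction. DESeq2 called 2 (4.46% of all genes were called higher by it), and 2 were higher at an unadjusted p under 0.05 (7.03% of all genes). The endosomal nucleic acid receptors Tlr9, Tlr3 and Tlr7 had the smallest p, with log2FC of 1.79, 0.80 and 0.75. Of 9 negative regulators edgeR called 1 higher, against 0.664% of all genes. It was Socs3, an inhibitor of cytokine receptor signalling, with a log2FC of 2.92 (SE 0.18, adjusted p = 0.0115 in edgeR). The call was lost without control A (adjusted p = 0.0888 in edgeR), without control B (0.0781) and with a block by library letter (0.131), where its log2FC lay between 2.90 and 2.99. Socs3 stood at 5.98 and 6.37 CPM against 42.4, 56.6 and 41.1 CPM. Its highest library was blue B, the blue library in which 34 of the 37 interferon-stimulated genes were lower than in blue C. The editing enzyme Adar had a log2FC of 0.45 and Pias1, an inhibitor of STAT signalling, -0.31, neither passing.

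Another 29 interferon-stimulated genes outside the list of 37 were read the same way. In edgeR 0 passed, 28 of 29 had a positive log2FC, 12 were higher at an unadjusted p under 0.05 and DESeq2 called 7. Over all tested genes the shares were 2.22% passing in edgeR, 49% positive, 7.03% higher at that p and 4.46% called higher by DESeq2. The median log2FC of the 29 was 0.96. The smallest p-values belonged to Gbp4 (log2FC 1.29), the ISG15 ligase Herc6 (1.5) and Parp9 (1.15), with adjusted p of 0.163, 0.186 and 0.227 in edgeR. Over all 85 other interferon pathway genes, 66 were tested and Socs3 alone passed in edgeR.

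Markers of the cells that could carry these transcripts were read in the same libraries. The 37 genes had a level, the mean over genes of log2 CPM after subtracting each gene's mean, of -1.48 and -0.29 against 1.35, -0.25 and 0.68. The 13 microglia and macrophage markers were at -0.86 and -0.34 against 0.73, 0.13 and 0.34, the same order of libraries. Of these 13, 12 had a positive log2FC, as did 49% of all tested genes. Their summed level was 144 and 192 CPM in the controls and 413, 293 and 329 CPM in the blue libraries, and none was at 0 in both controls. The homeostatic microglial genes P2ry12 and Tmem119 had log2FC of -0.28 and 0.35. The 6 Muller glia markers ran in the same library order over a smaller range, at -0.22 and -0.16 against 0.22, 0.05 and 0.11. Of these, 4 had a positive and 2 a negative log2FC. The part of these cells in the values of the 37 genes was not tested.

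Lymphocyte and neutrophil markers were scarce. The 10 T and NK cell markers summed to between 2.07 and 4.39 CPM in any library, and Cd3d was at 0 in both controls. The 6 neutrophil markers summed to 3.43 and 3.20 CPM in the controls and to 9.90, 5.80 and 7.09 CPM in the blue libraries. Csf3r was the largest part there, and Ly6g was at 0 in every blue library. Of the 4 tested, 2 had a positive log2FC (Csf3r and Retnlg) and 2 a negative one (S100a9 at -1.90 and Ngp at -0.54). The 5 B and plasma cell markers summed to 17.1 and 11.7 CPM against 6.60, 6.36 and 8.15 CPM.

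Of 5 plasmacytoid dendritic cell markers, cells known as strong producers of interferon, 1 rose. Siglech, which microglia also express, rose by 1.87 (adjusted p = 0.0258 in edgeR), from 0.988 and 0.915 CPM to 3.87, 2.93 and 3.68 CPM. Its adjusted p in edgeR was 0.0583 and 0.114 without blue A and C. With a block by library letter it was 0.328 in edgeR, and with the Rn45s share as a covariate 0.0947. In the other settings that tested Siglech with both controls it stayed under 0.05. The log2FC of Siglech was 1.96 and 1.82 without control A and B, and the call was kept in neither fit, each with 1 control left. The other markers of that list did not pass, with Ccr9 at -0.62.

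Adipocyte markers followed the library order of the 37 genes, at -1.10 and -0.84 against 1.30, -0.47 and 1.10. Cidec and Lep, at 0 in both controls, passed the filter through blue libraries alone, which draws that level up in blue A and blue C. The more abundant Lipe, Plin4 and Car3 had log2FC of 0.14, 0.26 and 0.21. The adipocyte protease Cfd (adipsin) was the member of that list of 9 that passed, and it rose by 2.55 (adjusted p = 0.0468 in edgeR). That call was lost in edgeR without control A, control B, blue A (adjusted p = 0.103) or blue C (0.156). It was also lost in limma-voom (adjusted p = 0.118). In edgeR it was lost with a block by library letter (0.390) and with the Rn45s share as a covariate (0.132). The 9 adipocyte markers summed to 100.5 and 104 CPM in the controls and to 133, 108.2 and 129.9 CPM in the blue libraries. Skeletal muscle markers were high in control B and blue A and low in the other 3 libraries (1470 and 1400 CPM against 679.5 to 747 CPM summed). Cornea and ocular surface markers were highest in blue A as a list, with levels of -0.28 and 0.05 against 0.72, -0.03 and -0.46. Krt5, Krt14, Krt13 and Krt4 were highest in blue A, and Krt12 and Aldh3a1 in blue B. Rod markers ran in the exact reverse order of the 37 genes, summing to 20980 and 19860 CPM against 3502, 6522 and 5034 CPM. Blue A, with the highest interferon-stimulated level, thus held the least rod RNA, and among the blue libraries blue B had the lowest interferon-stimulated level and the most rod RNA. Whether any of these tissue differences bears on the 37 genes was not tested.

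**Figure D5:**
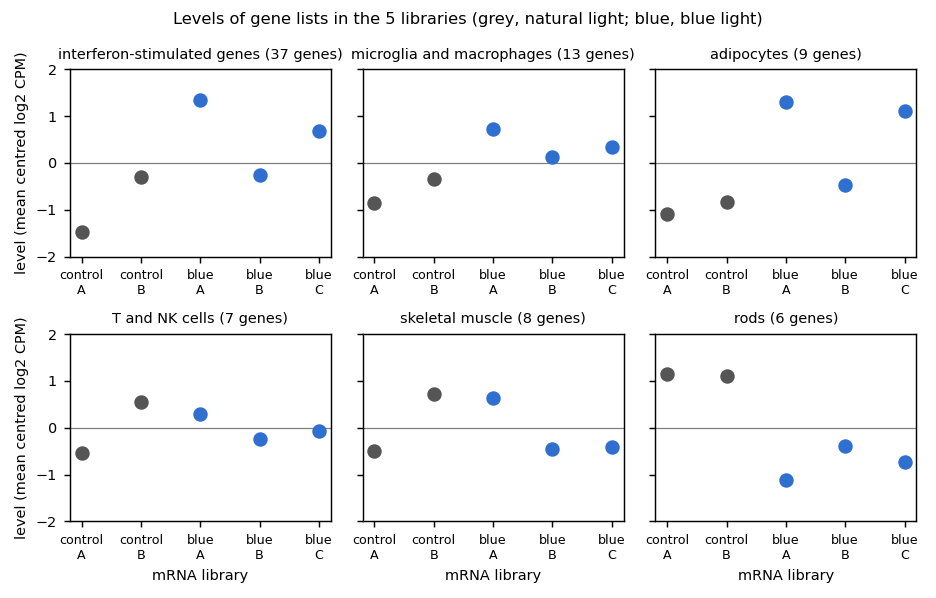
Each panel gives the level of a gene list (mean of log2 CPM centred on each gene's mean over the libraries) in the 5 mRNA libraries, grey for natural and blue for blue light. The interferon-stimulated genes run from -1.48 in control A to 1.35 in blue A, with blue B (-0.25) next to control B (-0.29), and the rod panel has blue A lowest at -1.12.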

How the data were processed

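Per the labels' protocols, Trizol was used to extract eyeball RNA, probes to deplete ribosomal RNA, and random primers on the fragmented rest. Tools named in the submitters' processing notes, with no role, are HISAT2, StringTie, limma, DESeq2 and bcl2fastq 2.0, and the build is mm10. The deposited mRNA values were taken as estimated counts per symbol, not normalised by the authors. They are whole numbers but uneven (1051 values equal 4 and 751 equal 3), so no counting intervals are given. The sources used here do not give strand use.

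Columns were matched by title and grouped by source name, and the 5 miRNA libraries were not analysed here. Groups were compared with edgeR 4.0.16 in R 4.3.3 (TMM, filterByExpr by group, quasi-likelihood F-test, Benjamini-Hochberg over 18988 genes). All 37 genes passed the filter. Log2 levels of lists used a prior count of 2. The members and lists were chosen with earlier results of these data known. Alternatives were other scalings and filters, DESeq2 1.42.0, limma-voom (limma 3.58.1), a replicate block, each library left out and overlapping genes summed. Values divided by 4 and the Rn45s share as a covariate were chosen after seeing the data. Named were all 37 genes, the receptors and JAK-STAT genes, and the 3 tested genes with the smallest p in each other pathway list. Some of the genes named by this rule or held in the marker lists are not reported here. The pipeline was tested on simulated counts.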

Additional observations from a re-analysis of the deposited data

How the results depend on the processing

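Across the 37 genes and the alternatives run, 589 of 591 log2FC kept their sign, the exceptions being Oasl1 without control A and without blue A (its leave-one-out range was -0.60 to 0.90). With 1 blue library left out, edgeR called 0 to 9 of the 37 and 1 to 3 of the other pathway genes. With any 1 library left out the median log2FC ran from 1.08 to 2.37, and the groups were apart for 22 to 36 genes. Groups come apart more easily with fewer libraries, so these counts cannot check the count in the full set. Their share over all genes is not given here. Where 1 control remained, its spread was taken to equal that of the blue group. DESeq2 called 13 of the 37 and 13 of the other pathway genes, against 0 and 1 in edgeR. With the letter as a replicate block, 0 of the 37 and 0 other pathway genes passed in edgeR (Socs3 did not), 1 of the 37 had an unadjusted p under 0.05, and the median was 1.39. The letters are not said to pair animals, so the letter was not taken as a pairing. Deviations of same-letter libraries correlated at -0.18 (A) and -0.15 (B) across genes, which cannot settle pairing with so few libraries. With the Rn45s share as a covariate edgeR called 0 of the 37, 21 having an unadjusted p under 0.05, and the median was 1.35. Over all genes the count of calls was 421, 274 with library totals as the only scaling, 1729 in DESeq2, 0 with the block, 14 with the Rn45s share, and 0 to 311 with a library left out. Ifngr1 turned to 0.023 with library totals and to 0.025 with the block, and ran from -0.061 to 0.026 with a library left out. Jak1 turned to 0.022 with library totals and ran from -0.035 to 0.0054, Irf3 ran from -0.15 to 0.0086, and Irf5 turned to -0.041 with overlapping genes summed. The cause of these shifts was not tested. Of the 21 interferon ligand genes 19 were too low to test.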
